A study of Mus musculus with 4 samples.

Results

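Endothelial cells of fetal mouse leg muscle were described from single-cell RNA sequencing in droplets. They numbered 1216 of the 36969 cells kept after quality filtering and of the 41741 cells deposited. A kept cell had 1000 to 6000 detected genes, 1000 to 25000 unique molecular identifiers (UMIs, each marking a captured transcript) and under 8% mitochondrial UMIs. It was counted as endothelial when at least 3 of *Cdh5*, *Cldn5*, *Kdr*, *Pecam1*, *Emcn* and *Ptprb* had a UMI and *Pdgfra*, *Myog* and *Myh11* had none, so the levels of these 9 genes describe the choice of cells and are not findings. Of the 4 libraries, 2 came from wild-type (WT) and 2 from knockout (KO) fetuses at E18.5, littermates born to parents heterozygous for *SYISL*. *SYISL* is a long non-coding RNA overlapping an intron of *Synpo2*, and KO fetuses were knockouts for it. Leg muscle was digested with trypsin and red blood cells were lysed before capture, with no sorting step described. How many fetuses entered a library and their sex were not given in the sources used here.

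Endothelial cells line all vessels, keep the wall closed through junctions built on VE-cadherin (*Cdh5*), and grow under the VEGF ligands, whose receptors are *Flt1*, *Kdr* and *Flt4*. Arteries are set apart by Notch signalling and veins by the nuclear receptor *Nr2f2*, while lymphatic vessels are specified by *Prox1*. Muscle capillaries take up fatty acids, for which *Gpihbp1* anchors lipoprotein lipase on the vessel wall, *Cd36* binds fatty acids at the membrane and *Fabp4* carries them inside the cell.

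The WT libraries held 287 and 293 endothelial cells and the KO libraries 342 and 294, with 3220426, 3007406, 3656582 and 3130933 UMIs in their sum. The median endothelial cell had 9972 (WT 1), 8678 (WT 2), 8954 (KO 1) and 8739 (KO 2) UMIs. KO replicate 2 stood apart from the other 3 libraries: its kept cells held 131038 UMIs of *Xist*, against 0 to 5 elsewhere, and Y-linked genes had a UMI in 1.00% of them, against 85.8% to 89.9%. Genotype and this difference between the KO libraries cannot be fully told apart, and the comparisons were repeated without that library. Among endothelial cells, 1 barcode was shared by 2 libraries (WT 1 and KO 1). The feature table has no entry for *SYISL*, so the knockout itself was not checked here. *Synpo2* had 3 to 5 UMIs in the endothelial cells of each library.

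Detection of the 6 chosen genes was mostly complete. All 6 had a UMI in 851 of the 1216 cells (70.0%), and exactly 5, 4 and 3 of them in 205, 95 and 65 cells. Just outside the rule, 207 kept cells free of the 3 excluding genes had exactly 2. The 65 cells just inside held *Gpihbp1* at 93.7 to 378 CPM (counts scaled to 1000000 summed UMIs) over the 4 libraries and *Fabp4* at 3746 to 10917. The 207 just outside held *Gpihbp1* at 8.11 to 42.3 CPM, *Fabp4* at 288 to 1296 and *C1qa*, a macrophage complement gene, at 137 to 277. Inside, *C1qa* was at 0.0 to 17.0 CPM. The matrix gene *Col1a1* was high on both sides, at 1586 to 5416 CPM inside and 4303 to 7720 outside. The pericyte gene *Rgs5* was at 0.0 to 763 CPM inside and 316 to 553 outside. Cells with 3 or more of the genes that also had an excluding gene, and so were left out, numbered 48 to 76 per library.

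The label was checked on genes the rule did not use, and all 13 endothelial genes on a list of such genes were present in every library. *Tie1*, an orphan receptor of the angiopoietin system, had 129, 126, 105 and 119 CPM in endothelial cells (WT 1, WT 2, KO 1, KO 2, the order used throughout) and 0.75 to 1.1 CPM in the other kept cells. *Egfl7*, a secreted endothelial protein, had 769, 668, 704 and 615 CPM, against 12.2 to 14.3. *Erg*, the ETS factor that maintains endothelial identity, had 125, 127, 130 and 129 CPM, against 7.1 to 23.9. Levels of these genes thus lay close together in the 4 libraries. Each sum mixes the kinds of endothelial cell described below, so a change in their mix and a change of level within cells cannot be told apart in it.

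Beyond the 6 chosen genes, the genes that set endothelial cells apart were those of fatty acid handling, junctions and receptors. Among genes with at least 100 CPM in every library, the 30 with the highest fold over the other kept cells, taken at the lowest of the 4 libraries, held the 6 of the rule and 24 others with a lowest fold of 22.6 to 84.7. These folds were computed with 5 CPM added to both levels. *Fabp4* was at 18216, 15262, 21418 and 14335 CPM, against 140 to 221 in the other cells. *Gpihbp1* was at 872, 883, 888 and 709 CPM, against 3.7 to 6.0. *Icam2*, a junctional adhesion molecule, was at 453, 427, 476 and 428 CPM, against 2.6 to 3.5. The adhesion receptors *Adgrf5* and *Adgrl4*, the lectin *Cd93*, the apelin receptor *Aplnr* and the SoxF factors *Sox17* and *Sox18* were in the same list. The cells were chosen by expression, so these folds carry no test.

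**Figure D1:**
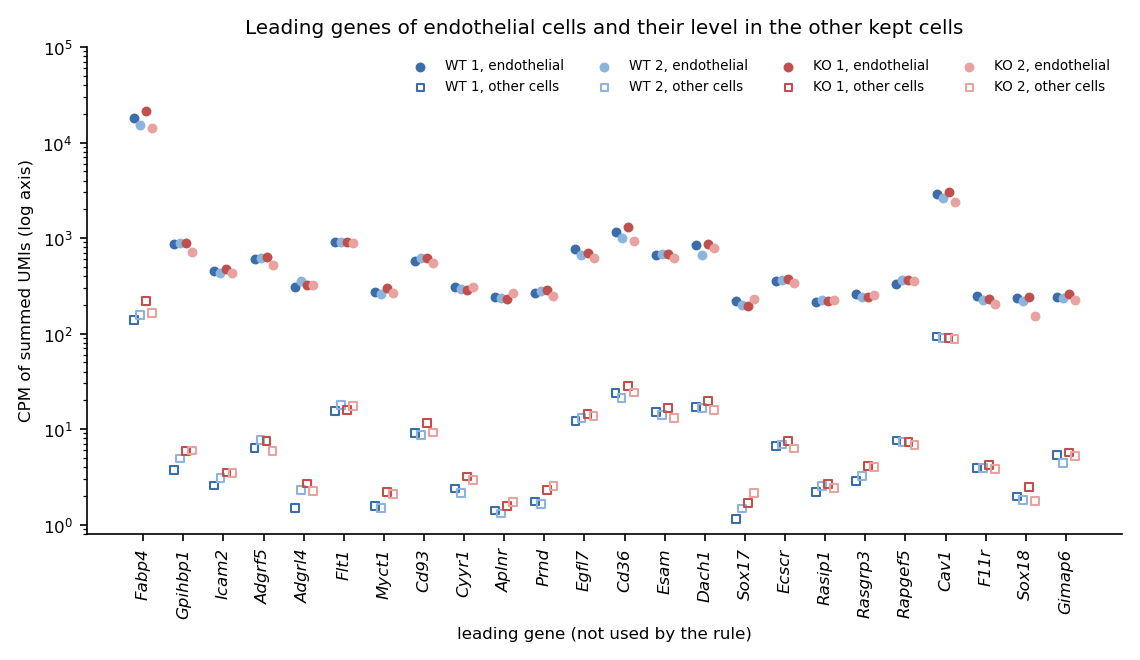
CPM (log axis) of the 24 leading genes not used by the rule, in endothelial cells (filled circles) and in the other kept cells (open squares) of each library, with WT libraries in blue and KO libraries in red. For each gene the 4 endothelial values lie together and at least 22.6-fold above the other cells, as for *Fabp4* at 14335 to 21418 CPM against 140 to 221.

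Leiden clustering of the endothelial cells alone gave 12 clusters, which were grouped by marker genes into kinds of vessel. Arterial-like cells numbered 137, venous-like cells 59, capillary-like cells 282 and cycling cells 360. A further 201 cells formed cluster 0, 6 cells carried at least 5 of 10 lymphatic markers, and 171 cells lay in clusters with markers of another lineage. Cluster 0 had 6 capillary markers at 2-fold over the arterial and venous clusters. It was left unnamed by a check of its 10 leading genes, chosen after the data were seen. They held the venous marker *Icam1* and no capillary marker. At a clustering resolution of 0.3, 193 of its 201 cells joined the capillary-like cells, and at 1.0, 183 again formed an unnamed cluster. The cells were grouped on these same genes, so the levels that follow describe the groups without a test.

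**Figure D2:**
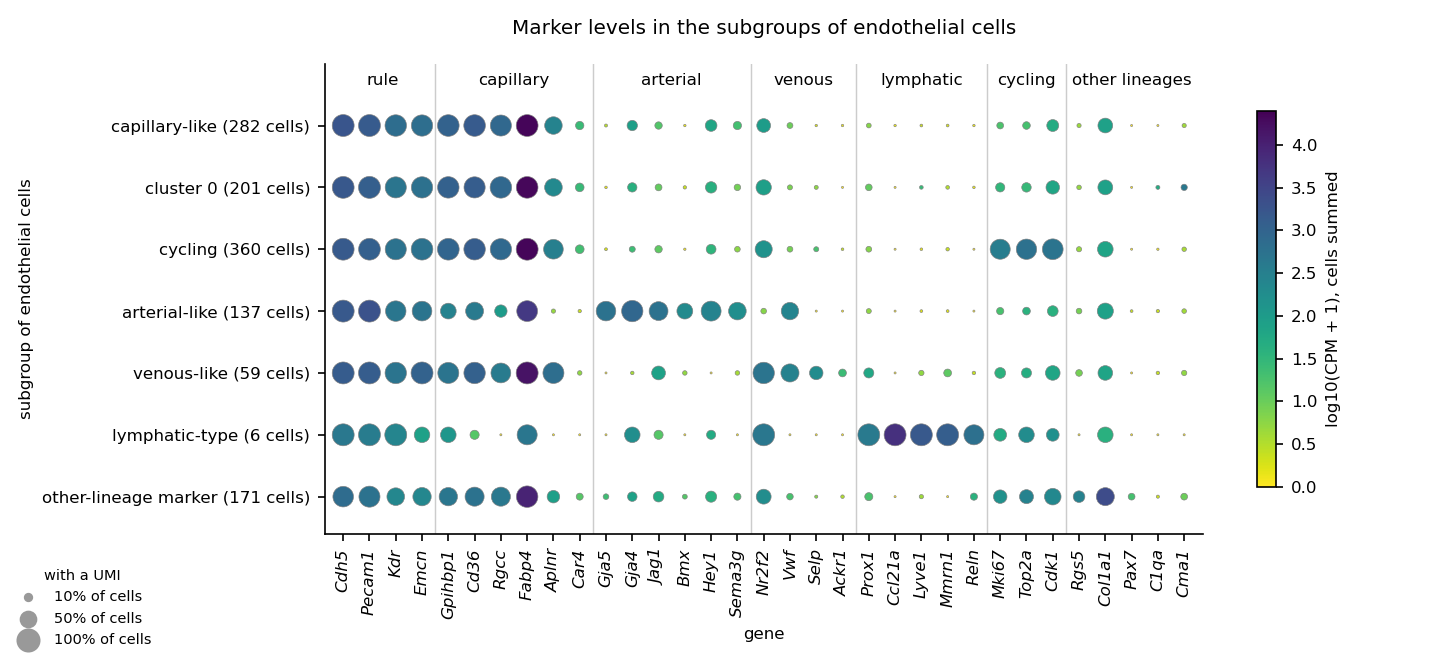
Levels of fixed marker genes (columns) in the 7 subgroups of endothelial cells (rows), as log10(CPM + 1) of the summed UMIs in colour and the share of cells with a UMI as dot area. The arterial genes stand out in the 137 arterial-like cells, *Selp* and *Nr2f2* in the 59 venous-like cells and *Ccl21a* in the 6 lymphatic-type cells, while *Cdh5* and *Pecam1* are present in every subgroup.

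Arterial-like cells carried the gap junction proteins of arterial endothelium. *Gja5* was at 564, 492, 512 and 612 CPM, against 0.0 to 4.7 CPM in capillary-like cells, and had a UMI in 79.6% of arterial-like cells and 1.06% of capillary-like cells, whose median depths were 8910 and 7712 UMIs. *Gja4* followed at 908, 851, 803 and 915 CPM. All 12 arterial markers reached 2-fold over the other endothelial cells in that cluster. The Notch ligand *Jag1* was at 644, 442, 377 and 732 CPM and the Notch target *Hey1* at 280, 243, 251 and 312 CPM, and for both genes the WT and KO libraries overlapped. *Vegfc*, a lymphatic growth factor, was at 634 CPM in arterial-like cells summed over libraries and 36.7 in capillary-like cells. The chemokine *Cxcl12* was at 781 CPM in arterial-like cells, 96.5 in capillary-like cells and 4.3 in venous-like cells. *Ltbp4*, which tethers TGF-beta in the matrix, was at 382 CPM, against 35.9 in capillary-like cells. *Aplnr* was nearly absent, with 6 UMIs in the 137 cells (4.0 CPM, against 266 in capillary-like cells), and *Fabp4* was lower, at 4686 CPM against 21550.

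Venous-like cells held the venous marker *Nr2f2* at 425, 653, 390 and 539 CPM. Its level was 96.1 CPM in capillary-like and 5.3 in arterial-like cells. P-selectin (*Selp*), which slows leukocytes on the vein wall, was at 119, 146, 276 and 254 CPM, against 0.8 CPM in capillary-like and 0.0 in arterial-like cells. These values rest on 9 to 19 cells per library. *Procr*, the protein C receptor, was at 130 CPM in venous-like cells and 12.8 in capillary-like cells, and *Aplnr* was at 682. Von Willebrand factor (*Vwf*) was shared by both large-vessel groups, at 289 CPM in venous-like and 255 in arterial-like cells, against 8.8 in capillary-like cells. *Prox1* had 42 UMIs in venous-like cells (60.2 CPM) while *Ccl21a* had none there.

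Capillary-like cells held *Gpihbp1* at 1098, 1221, 1128 and 864 CPM and *Cd36* at 1580, 1388, 1463 and 1114. KO replicate 2 was the lowest library for both genes. *Car4*, carbonic anhydrase of the capillary surface, was low, at 25.5 CPM, and *Mfsd2a*, the lipid transporter of the blood-brain barrier, had no UMI in these cells. Their leading genes over the other endothelial cells reached folds of 1.76 to 2.42, with *Depp1*, *Hecw2*, *Timp4*, *Btnl9* and *Aqp7* among them. Cycling cells had a capillary type of profile, with *Gpihbp1* at 960 CPM and *Aplnr* at 325, and held *Mki67* at 355 CPM and *Top2a* at 593, against 16.4 and 19.1 in capillary-like cells.

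Cluster 0 was at the capillary level for *Gpihbp1* (1122 CPM) and *Cd36* (1293 CPM), and was led by *Cxcl2*, *Srgn*, *Apoe*, *Ier3*, *Rgs16* and *Icam1*. The leukocyte adhesion molecule *Icam1* was at 365, 335, 478 and 411 CPM in cluster 0 and 81.8 CPM in capillary-like cells. The early response genes *Fos* and *Junb*, which also rise during tissue digestion, were at 684 and 871 CPM, against 121 and 129. Cluster 0 also held genes of blood cells. *S100a9* of neutrophils was at 352 CPM but had a UMI in 3.98% of its cells, *Cma1* of mast cells was at 426 CPM in 7.46%, and *C1qa* was at 51.0 CPM in 2.49%. Of 21 endothelial cells with at least 3 macrophage markers or at least 3 neutrophil and mast cell markers, 16 lay in cluster 0, and 5 of these 16 were called doublets by Scrublet. Their part in the place of cluster 0 was not tested.

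Lymphatic endothelium was rare, with 0, 1, 2 and 3 cells in the 4 libraries. The 0 of 287 cells in WT 1 allows a share of up to 1.05% (a floor of 3 cells, with an exact binomial upper bound of 1.28%), and WT 2 had 0.341%, KO 1 0.585% and KO 2 1.02%. All 6 cells held *Prox1* (2 to 9 UMIs), *Lyve1*, the hyaluronan receptor (2 to 56), *Mmrn1* (6 to 33) and *Ccl21a*, the chemokine that guides leukocytes into lymph vessels (6 to 191). *Cldn5* was at 2339 CPM in them, while *Flt1* and *Nrp1*, receptors of the blood vessel, had no UMI. The rule left some such cells out. In WT 2, 1 kept cell with 114 *Ccl21a* UMIs carried an excluding gene, and in KO 1, 1 such cell held 93. *Ccl21a* has near-identical copies in the mouse genome that the aligner may not separate, so its counts are uncertain.

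The 171 cells with markers of another lineage fell into 4 clusters. In 79 cells pericyte genes led (*Rgs5*, *Higd1b*, *Pdgfrb*, *Kcnj8*), in 58 cells matrix and cartilage genes (*Col2a1*, *Tnmd*, *Dcn*, *Col1a1*), in 23 cells myogenic genes (*Msc*, *Fgfr4*) and in 11 cells genes of the glial list. The matrix cluster took 33 of its 58 cells from KO replicate 2. Scrublet called 27 of the 171 cells doublets, against 9 cells in all other subgroups together. Whether the others were mixed droplets was not tested.

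Endothelial cells took 3.37% (WT 1), 3.58% (WT 2), 3.48% (KO 1) and 2.81% (KO 2) of the kept cells. The 95% exact binomial intervals, which cover counting error only, were 3.00% to 3.78%, 3.19% to 4.01%, 3.13% to 3.87% and 2.50% to 3.15%. KO replicate 2 was lowest and the other 3 lay within each other's intervals. The KO mean was 0.330 percentage points below the WT mean (exact two-sided permutation test over libraries, p = 0.667). With 2 libraries per group the smallest p this test can give is 0.333. Without KO replicate 2 the difference was 0.0072 points in the opposite direction.

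For subgroup shares the same exact permutation test, adjusted over the 7 subgroups, cannot pass 0.05 with 2 libraries per group, so the shares are a description. Arterial-like, lymphatic-type and cluster 0 shares did not overlap between genotypes. Arterial-like cells took 13.9% and 11.3% of WT and 9.65% and 10.5% of KO endothelial cells, a difference of -2.50 points with groups that did not overlap (exact p = 0.333, adjusted 0.778). When cells were instead assigned by arterial markers detected per cell, 61.1%, 63.3%, 68.4% and 67.8% counted as arterial, a far larger set than the cluster. The difference in that set was 5.89 points. Cluster 0 took 15.3% and 15.7% against 17.5% and 17.3% (exact p = 0.333, adjusted 0.778). Capillary-like cells took 25.1%, 21.2%, 27.5% and 18.4%, venous-like cells 6.62%, 4.10%, 2.63% and 6.46%, and in both the groups overlapped. The clusters with other-lineage markers took 11.1%, 17.1%, 10.5% and 18.0%.

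**Figure D3:**
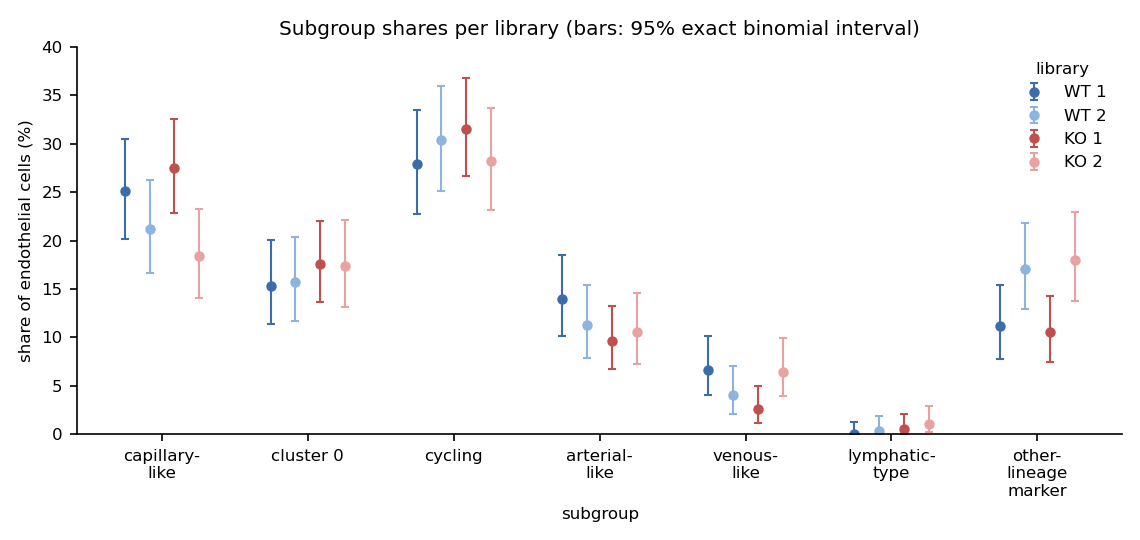
Share of endothelial cells in each subgroup (y axis, %), with 1 point per library and 95% exact binomial intervals. The intervals of the 4 libraries overlap in every subgroup, and the KO points lie below both WT points in the arterial-like subgroup, at 9.65% and 10.5% against 13.9% and 11.3%.

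Proliferation was measured as the share of endothelial cells with a UMI of *Mki67* or *Top2a* after each cell was thinned to 3000 UMIs. It was 33.5%, 37.1%, 34.0% and 35.9%, so the groups overlapped (difference -0.293 points, exact permutation p = 1.0), with 12 to 26 shallower cells per library left out. Without thinning it was 41.8%, 49.5%, 47.1% and 47.3%. The other kept cells had 21.1% to 24.7% after thinning, below all endothelial values. Neutrophil marker cells, which had at least 10 UMIs of each of *S100a8* and *S100a9* and should hold few dividing cells, had 3.13% to 21.1% of 18 to 64 cells, at median depths of 3517 to 4357 UMIs before thinning.

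KO and WT endothelial cells were compared on UMIs summed per library (edgeR quasi-likelihood test, Benjamini-Hochberg adjusted over all genes tested). Of 11648 genes, 4 passed an adjusted p of 0.05 (0.0343%), all lower in KO: *C1qa*, *C1qc*, *Pf4* and *Tpsb2*. No gene was higher, 298 had an unadjusted p under 0.05, and the median log2 fold change of all genes was 0.0027. None of the 4 is known as an endothelial gene: *C1qa* and *C1qc* encode complement chains made by macrophages, *Pf4* platelet factor 4, and *Tpsb2* a mast cell tryptase. Leaving out WT 1, WT 2, KO 1 or KO 2 gave 17, 13, 196 and 93 genes past the threshold, of which 6, 3, 116 and 12 were higher in KO. Without a filter on low counts 31 were higher and 45 lower. *Xist* and Y-linked genes, which set KO 2 apart, passed in that setting. They also passed when KO 1 was left out and KO 2 was the only KO library. No gene passed when cells with a UMI of a wider set of other-lineage genes were also excluded (287 at an unadjusted p under 0.05 in edgeR) or when the cell filter was loosened (458). The wider set held the immune gene *Ptprc*, and *C1qa* and *C1qc* then had too few UMIs to be tested. With 2 libraries per group, the p-values measure the spread between these libraries, which may be technical.

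*C1qa* (chromosome 4, 136895917 to 136898803, minus strand, GRCm38) had 49, 60, 6 and 3 UMIs, or 15.2, 20.0, 1.6 and 0.96 CPM, with a log2 fold change of -3.68 (SE 0.40, adjusted p = 0.023). It fell outside the rule for named genes, which needed a mean of 10 CPM, and was added after its values were seen. Both WT values lay above both KO values, yet 47 of the 49 UMIs of WT 1 and 58 of the 60 of WT 2 came from 1 cell each. *C1qc* (chromosome 4, 136889804 to 136893065, minus strand) had 59, 58, 11 and 5 UMIs, with a log2 fold change of -2.97 (SE 0.35, adjusted p = 0.031), and the same 2 cells held 57 UMIs each. *Pf4* (chromosome 5, 90772435 to 90773383, plus strand) had 155, 157, 57 and 29 UMIs and a log2 fold change of -1.97 (SE 0.22, adjusted p = 0.023). Those 2 cells held 130 and 129 of its UMIs. Both carried 9 of the 10 macrophage markers, and the cell of WT 2, which had 23505 UMIs, was called a doublet.

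*Tpsb2* (chromosome 17, 25366305 to 25369098, plus strand) had 228, 316, 53 and 75 UMIs, or 70.8, 105, 14.5 and 24.0 CPM, with a log2 fold change of -2.19 (SE 0.24, adjusted p = 0.023). In WT 1, 221 of the 228 UMIs came from 1 cell that also held the mast cell protease *Cpa3*, with 357 UMIs. In each library at least 94.7% of the *Tpsb2* UMIs lay in its 5 highest cells. Without the 21 cells that had 3 or more macrophage, or neutrophil and mast cell, markers (4, 8, 3 and 6 per library), *Tpsb2* was at 1.9, 1.0, 1.6 and 1.9 CPM and *C1qa* at 0.63, 0.69, 0.27 and 0.65. *C1qa*, *C1qc* and *Tpsb2* then had too few UMIs to be tested. No tested gene passed in edgeR, with 276 at an unadjusted p under 0.05. *Pf4* was tested there, with a log2 fold change of -0.09. That removal was chosen after the data were seen, and *C1qa* and *C1qc* are on the list that picked the cells, so the fall of these 2 genes follows from the choice. For *Tpsb2*, 88.7% to 99.1% of the UMIs per library lay in the removed cells, which mast cell markers helped to pick. The summed macrophage list stood at 86.0, 89.4, 23.8 and 20.1 CPM in all endothelial cells and at 417 to 497 CPM in the other kept cells.

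**Figure D4:**
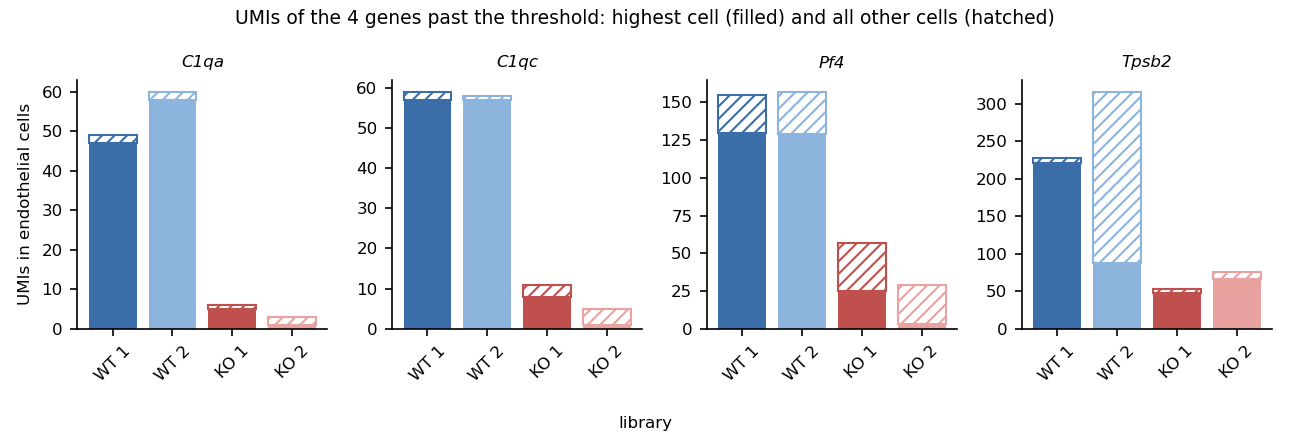
UMIs of the 4 genes past the threshold in the endothelial cells of each library (y axis, from 0), split into the single highest cell (filled) and all other cells (hatched). For *C1qa* and *C1qc* 1 cell holds nearly all WT UMIs, as for 47 of the 49 *C1qa* UMIs of WT 1, and for *Pf4* 1 cell holds 130 of 155 and 129 of 157.

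Below the threshold, the genes with the smallest p values among those of at least 20 CPM whose groups did not overlap included genes known from lymphatic vessels, red blood cells, muscle and immune cells. Groups did not overlap for 28.5% of all genes tested, 12.1% with KO higher and 16.4% with KO lower. *Ccl21a* had 0, 6, 117 and 338 UMIs (log2 fold change 6.12, SE 0.86, adjusted p = 0.093), and all but 1 of these UMIs lay in the 6 lymphatic-type cells. The rule left out a WT 2 cell with 114 *Ccl21a* UMIs and a KO 1 cell with 93, so these counts depend on the choice of cells. The haemoglobin gene *Hbb-bs* had 168, 181, 497 and 2029 CPM (2.87, SE 0.50, adjusted p = 0.25), and in each library at least 93.3% of its UMIs lay in 5 cells. The muscle myosin light chain *Mylpf* had 21.1, 13.0, 35.8 and 48.5 CPM (adjusted p = 0.30 in edgeR). *Srgn* (118, 131, 77.9 and 76.0 CPM) and the immune gene *Fcer1g* (26.7, 56.2, 6.0 and 12.1) were lower in KO, with adjusted p of 0.18 and 0.25. *Srgn* was widespread, with a UMI in 33.3% to 44.9% of the endothelial cells of a library. Without the 21 cells with immune markers it was at 83.0, 75.6, 75.3 and 59.9 CPM.

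For *Tnip1* and *Pcdh17*, the 5 highest cells of a library held at most 22.2% of the UMIs. *Pcdh17*, a protocadherin, had 276, 305, 359 and 414 CPM and a UMI in 68.3% to 72.5% of cells (log2 fold change 0.43, SE 0.10, adjusted p = 0.96). *Tnip1*, which restrains NF-kappaB signalling, had 23.9, 26.9, 39.4 and 40.9 CPM (0.67, SE 0.15, adjusted p = 0.71).

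None of 52 key endothelial genes passed the threshold with all 4 libraries, 50 of which had enough UMIs to be tested. *Ccl21a* passed in 8 of its 16 alternatives, among them the replicate block (adjusted p = 9.6e-05) and the removal of any 1 library, with adjusted p from 4.7e-106 to 1.0 over the alternatives. As given above, the counts of *Ccl21a* depend on which lymphatic cells the rule kept. Leaving aside the 6 genes that chose the cells, 44 key genes were tested. Among the 25 of them at 100 CPM or more in every library, log2 fold changes stayed within 0.33 of 0. Groups did not overlap for 9 of the 44, with KO higher for 6 and lower for 3, where 28.5% of all genes did not.

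**Figure D5:**
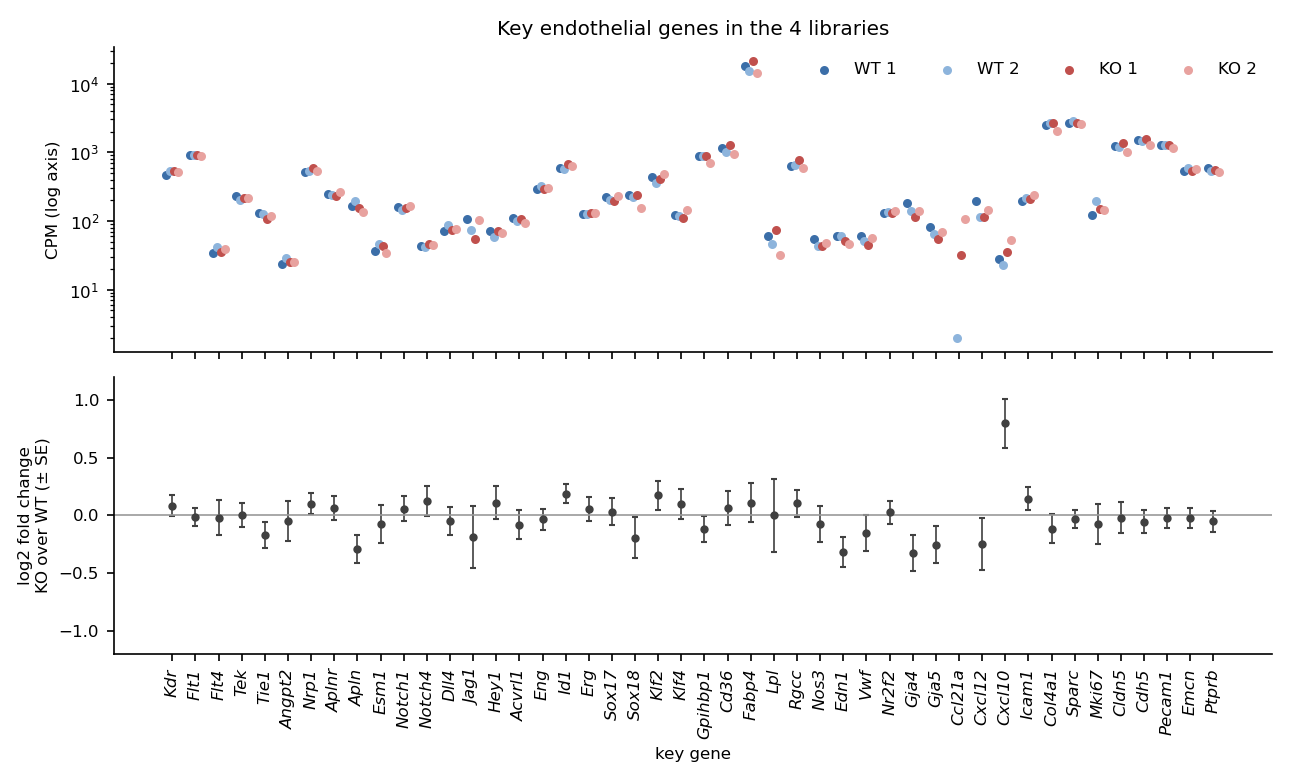
Key endothelial genes whose mean over the 4 libraries reached 20 CPM: CPM per library on a log axis (top) and log2 fold change of KO over WT with its standard error (bottom). The libraries lie close together for most genes, such as *Flt1* at 878 to 916 CPM, and the fold change of *Ccl21a* (6.12) and its 0 CPM in WT 1 are not drawn.

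Of the growth factor receptors, *Flt1*, the decoy receptor of VEGF, had 916, 911, 915 and 878 CPM (log2 fold change -0.01, SE 0.08), and *Tek*, the angiopoietin receptor, 231, 203, 214 and 217. The groups overlapped for both. *Kdr*, the main VEGF receptor, chose the cells and is given as a description, at 473, 528, 535 and 515 CPM. Of 22 genes of the VEGF, angiopoietin and apelin systems, 20 were tested and 0 called, *Kdr* and *Ptprb* of the rule included. Groups did not overlap for 7, of which KO was lower for 6 and higher for 1, *Nrp2*, where 16.4% of all genes were lower and 12.1% higher without overlap. *Apln*, the apelin ligand made by sprouting cells, had 165, 198, 157 and 136 CPM (-0.29, SE 0.12, adjusted p = 0.999), *Vegfa* 27.6, 30.6, 19.4 and 17.9 and *Pgf* 18.6, 17.3, 7.4 and 11.5.

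Sprouting and Notch genes gave no call either. Of 8 tip cell genes, 6 had a negative log2 fold change, with a list median of -0.11 against 0.0027 for all genes. *Cxcr4*, the receptor of *Cxcl12*, had 29.8, 31.3, 20.8 and 14.4 CPM (-0.77, SE 0.21, adjusted p = 0.999). *Esm1* had 37.0, 46.2, 43.2 and 34.5 CPM and overlapped. Of 14 Notch genes all were tested, with *Notch1* at 161, 146, 155 and 163 CPM, *Dll4* at 72.0, 86.8, 74.9 and 77.0 and *Jag1* at 106, 72.8, 54.4 and 103. *Jag1* overlapped because KO replicate 2 matched the WT libraries.

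Genes of BMP and TGF-beta signalling and endothelial transcription factors gave no call, over 17 and 24 tested genes. *Eng* and *Acvrl1*, the BMP9 co-receptor and receptor, had 291 to 323 and 92.0 to 111 CPM. *Id1*, a BMP target, had 585, 575, 667 and 640 CPM, higher in both KO libraries (0.19, SE 0.08, adjusted p = 0.999), as were *Id2* and *Smad7*. In the other kept cells the log2 fold change of *Id1* was 0.20 (SE 0.11). Of the 17 tested, 3 had KO higher and 1 had KO lower without overlap, against 12.1% and 16.4% of all genes. Among 26 transcription factors, *Erg*, *Fli1* and *Elk3* differed by less than 0.1 in log2 fold change. Of the 24 tested, 4 had KO higher without overlap, where 12.1% of all genes did, such as *Lyl1* (12.1, 8.98, 15.3 and 17.2 CPM, log2 fold change 0.63, SE 0.26). Another 2 had KO lower without overlap, where 16.4% of all genes did, such as *Gata2* (36.3, 35.9, 27.3 and 30.7 CPM). *Sox18* was lowest in KO 2, at 235, 221, 240 and 154 CPM. The flow-induced factor *Klf2* had 436, 357, 408 and 479 CPM, and its level in the other kept cells was 597 to 823.

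The capillary and lipid uptake lists had no call and no gene whose groups failed to overlap, over 11 tested genes in each. *Gpihbp1* had a log2 fold change of -0.12 (SE 0.11), *Cd36* of 0.06 (SE 0.15) and *Fabp4* of 0.11 (SE 0.17). *Fabp4* varied more between the KO libraries, at 21418 and 14335 CPM, than between the group means of 16739 and 17877. Of 18 junction genes, which include *Cdh5*, *Cldn5* and *Pecam1* of the rule, 0 were called, and *Esam*, a junctional adhesion molecule, had 667, 680, 676 and 612 CPM. Among 16 basement membrane genes *Col4a1* had 2492, 2676, 2690 and 2027 CPM and *Sparc* 2628, 2840, 2710 and 2589, with 0 called.

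Vessel tone and clotting genes followed. *Nos3*, the nitric oxide synthase of endothelium, had 54.3, 42.9, 43.2 and 48.5 CPM, and *Vwf* 60.9, 51.5, 44.6 and 55.9. Endothelin-1 (*Edn1*) had 60.9, 60.5, 50.3 and 46.0 CPM, lower in both KO libraries (-0.32, SE 0.13, adjusted p = 0.999). Of 13 genes tested in this list, 3 had KO below WT without overlap and 0 above, against 16.4% and 12.1% of all genes. Of 14 leukocyte adhesion and chemokine genes tested, 0 were called. *Cxcl10* had 27.6, 22.9, 35.0 and 53.0 CPM (0.80, SE 0.21, adjusted p = 0.999) and *Selp* 10.6, 12.0, 16.7 and 32.3. The scavenging chemokine receptor *Ackr3* had 40.4, 35.2, 24.3 and 25.6 CPM (-0.59, SE 0.16, adjusted p = 0.999), lower in both KO libraries, while *Icam1* (193, 215, 212 and 235) overlapped.

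Interferon response genes were lowest in KO replicate 2 and highest in WT replicate 1 in several cases. The groups overlapped for *Bst2*, *Ifitm3* and *Isg15*, where KO 1 lay above WT 2. *Bst2* had 906, 631, 700 and 482 CPM, *Ifitm3* 956, 693, 741 and 520 and *Isg15* 129, 66.2, 86.1 and 42.5. Of the 12 tested genes in this list 10 had a negative log2 fold change, 3 without overlap (16.4% of all genes), and 0 were called. Among 11 cycling genes 9 had a negative log2 fold change with a median of -0.12, 5 without overlap (16.4% of all genes) and 0 called, and *Top2a* had 246, 284, 239 and 234 CPM.

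Markers of other cells varied among the libraries beside these results. Of the mural list, all 9 tested genes had a negative log2 fold change, 5 without overlap where 16.4% of all genes were, and its sum was 228, 159, 155 and 98.1 CPM, with *Myh11* at 0 by the rule. *Abcc9*, a potassium channel subunit of pericytes that arterial-like cells also held (104 CPM), had 45, 48.2, 28.7 and 25.6 CPM (-0.76, SE 0.14, adjusted p = 0.33). The fibro-adipogenic sum was 1181, 956, 910 and 1791 CPM, with *Pdgfra* at 0 by the rule, and the tendon and cartilage sum 157, 210, 39.4 and 369. The myogenic sum was 63.3, 56.5, 79.0 and 111 CPM, with *Mymk* at 0 and *Myog* at 0 by the rule. Of its 7 tested genes, 3 were higher in KO without overlap, where 12.1% of all genes were. The neutrophil and mast cell sum was 384, 491, 157 and 289 CPM with *Mpo* at 0, and the erythroid sum 315, 346, 734 and 3682. The part of these cells in the differences above was not tested beyond the counts given.

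Without KO replicate 2, 93 of 12121 genes passed (0.767%), 12 higher and 81 lower in KO, with the single KO library assumed to vary as the WT libraries do. They held the 4 genes named above and many of cartilage, such as *Col2a1*, *Acan* and *Comp*, whose list sum was lowest in KO 1. Of the key genes *Jag1* (-0.70, SE 0.16, adjusted p = 0.0041), *Fabp4* (0.38, SE 0.08, adjusted p = 0.00018) and *Ccl21a* passed. With all 4 libraries the adjusted p of *Jag1* and *Fabp4* was 0.999 each, and over all alternatives it ranged from 0.00047 to 1.0 and from 0.00018 to 1.0. When the clusters with other-lineage markers were also removed, 52 genes passed, 3 higher and 49 lower.

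Capillary-like cells were compared on their own to keep the mix of vessels out. Of 7282 genes, 0 passed in edgeR (0.0%) and 183 had an unadjusted p under 0.05. Without WT 1, WT 2, KO 1 or KO 2, 1, 10, 43 and 7 genes passed. *Gpihbp1* had a log2 fold change of -0.20, *Flt1* of -0.02 and *Apln* of -0.98 (adjusted p = 0.84). *Apln* in these cells was at 191, 289, 126 and 111 CPM, lower in both KO libraries.

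Whether the difference between KO and WT libraries was the same in endothelial and other kept cells was tested by the interaction of genotype and cell group. It passed for 33 of 19701 genes (0.168%), 14 (0.0711%) with a more positive and 19 (0.0964%) with a more negative log2 fold change in endothelial cells. Without WT 1, WT 2, KO 1 or KO 2 the count was 56, 55, 214 and 119. *C1qa* (interaction -3.75, SE 0.40, adjusted p = 3.8e-05), *Pf4* (-2.24, SE 0.21, adjusted p = 5.5e-06) and *Tpsb2* (-2.68, SE 0.22, adjusted p = 1.1e-06) were among them, as were *Ccl21a* and *Reln* in the positive direction. In the other kept cells, *C1qa* had 82.9, 61.2, 78.0 and 66.2 CPM, and no gene of 20318 passed there, with 979 at an unadjusted p under 0.05. Of the key genes *Ccl21a* was the 1 that passed the interaction. The WT 2 cell with 114 *Ccl21a* UMIs and the KO 1 cell with 93 that the rule left out were among the other kept cells there.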

How the data were processed

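Single-cell libraries of fetal leg muscle, 2 WT and 2 KO, were analysed from the deposited count matrices, which hold UMI counts per gene and cell that the authors made with Cell Ranger 7.2.0 on mm10, per the labels and methods. Whether intronic reads were counted was not given in the sources used here. The matrices held 109653824 to 126257094 UMIs each. The members, gene lists and alternatives were chosen with earlier results of these data known. Member cells of each library were normalised, sex-linked, mitochondrial and ribosomal genes were left out, and the cells were clustered by Leiden (2000 variable genes, 20 principal components, 15 neighbours, resolution 0.5; scanpy 1.11.5). A cluster was named from at least 3 markers that were 2-fold higher in it than in the other endothelial cells and present in 10% of its cells. For capillary markers the 2-fold was taken over the arterial and venous clusters only, in clusters without another name. The check of its 10 leading genes and the 5 of 10 markers for a lymphatic cell were chosen after the data were seen. Scrublet was run per library, and called cells were kept, with their removal as an alternative.

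UMIs were summed per library, since the library is the replicate, and tested with edgeR 4.0.16 (TMM, quasi-likelihood test, adjusted p under 0.05). The scripts were also checked on simulated counts, drawn with the levels and dispersions fitted to these data. There 62.6% of 2-fold changes were recovered in all endothelial cells and 44.1% in capillary-like cells. DESeq2 1.42.0 was an alternative, and shares were compared by exact permutation of libraries with scipy 1.17.1. Genes were named as fixed key genes and lists, called genes of at least 10 CPM without overlap, up to 5 per direction of at least 20 CPM with the smallest p, and leading genes of the cells and subgroups. Some marker genes are not reported here.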

Additional observations from a re-analysis of the deposited data

Results flagged for a closer look

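The difference between KO and WT libraries was not the same in endothelial and other kept cells for 16 of the named or listed genes (edgeR interaction of genotype and cell group, adjusted p under 0.05). Among all genes, 33 of 19701 passed (0.168%). The values are the log2 fold change of KO over WT in endothelial cells minus that in the other cells. Among macrophage and other immune genes it was -3.75 for *C1qa*, -2.70 for *C1qb*, -3.18 for *C1qc*, -1.82 for *Mrc1*, -2.24 for *Pf4* and -2.25 for *Fcer1g*. For *Srgn*, which had a UMI in 33.3% to 44.9% of the endothelial cells of a library, it was -0.69. Among mast cell genes it was -2.68 for *Tpsb2*, -2.18 for *Cma1* and -2.53 for *Cpa3*, while the neutrophil gene *S100a9* had 1.42. The haemoglobin genes *Hbb-bs* and *Hba-a2* had 1.18 and 1.29, and *Mylpf* had 0.86. Without Scrublet-called cells the sign turned for *S100a9* (-4.70), *Hbb-bs* (-0.79) and *Hba-a2* (-0.68). *Ccl21a* and *Reln* of the lymphatic list had 6.02 and 2.88. *Reln* was at 1.6 to 17.2 CPM in endothelial cells and 24.9 to 35.7 CPM in the other kept cells. In KO 1 the 2 lymphatic-type cells held 4 *Reln* UMIs each, of 47 in all its endothelial cells. In the endothelial cells *C1qa*, *C1qc*, *Pf4*, *Tpsb2*, *Ccl21a* and *Hbb-bs* came mostly from a few cells per library, as given above for each. The exception was *Pf4* in the KO libraries, where the highest cell held 25 of 57 and 3 of 29 UMIs. For *S100a9*, *Cpa3*, *Cma1*, *C1qb*, *Mrc1*, *Hba-a2*, *Fcer1g* and *Reln*, the 5 highest cells of each library held at least 70.0% of the UMIs. The part of those cells in the difference was not tested.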

How the results depend on the processing

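The 4 called genes became 7 with DESeq2, 76 without a filter on low counts and 11 without Scrublet-called cells (1 shared with the 4). *Xist* and Y-linked genes were among the 76. The count was 0 with the stricter exclusion, the looser cell filter or the removal of cells with immune markers. *C1qa* and *C1qc* had too few UMIs to be tested with the stricter exclusion or without Scrublet-called cells. Without the cells with immune markers, *C1qa*, *C1qc* and *Tpsb2* were not tested. That last removal was chosen after the data were seen, as were removals of other-lineage clusters and the addition of cluster 0. Without KO replicate 2 and the other-lineage clusters 52 passed. With a replicate block 11 genes passed in all endothelial cells and 6 in capillary-like cells. Same-numbered libraries correlated at 0.115, and with 2 pairs this does not show whether a number marks a shared litter or batch. With cluster 0 added, 16 genes passed in capillary-like cells, and without the other-lineage clusters 68 passed the interaction. Leaving out each library gave 13 to 196 called genes, 55 to 214 for the interaction and 1 to 43 for capillary-like cells, with a lone library assumed to vary like the other group.

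For shares, the KO minus WT difference turned in sign for arterial-like cells by marker panel (5.89), for capillary-like cells at resolution 0.3 (2.40), with library-centred expression (1.90), without Scrublet-called cells (1.15) and by marker panel (1.55), for the cycling subgroup with centring (-1.16) and without Scrublet-called cells (-0.155), for other-lineage cells at resolution 0.3 (-0.711), and for the *Mki67* or *Top2a* share without thinning (1.53). The marker panel took in far more cells than the clusters, at 61.1% to 68.4% of cells for the arterial panel. Leaving out each library gave -0.666 to 0.0072 points for the endothelial share, -2.73 to 1.1 for venous-like and -4.76 to 4.36 for capillary-like cells. It gave -0.894 to 2.45 for the cycling subgroup, -3.58 to 3.92 for other-lineage cells and -2.11 to 1.52 for the *Mki67* or *Top2a* share.

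Among single genes, log2 fold changes over the libraries left out ran from -0.056 to 0.028 (*Flt1*), -0.31 to 0.044 (*Gpihbp1*), -0.22 to 0.38 (*Fabp4*), -0.21 to 0.29 (*Cd36*), -0.28 to 0.20 (*Cldn5*), -0.25 to 0.13 (*Nos3*), -0.70 to 0.20 (*Jag1*) and -0.59 to 0.21 (*Cxcl12*). *Pf4* was 0.63 under the stricter exclusion, *Flt1* 7.6e-05 without lymphatic-type cells, *Cxcl12* 0.0077 with the looser filter, and *Gpihbp1* 0.036 and *Cldn5* 0.18 without KO replicate 2 and the other-lineage clusters. Without Scrublet-called cells the interaction was -0.79 for *Hbb-bs*, -4.70 for *S100a9* and -0.68 for *Hba-a2*. The causes were not tested. The number of cells limits the rare groups, such as the 6 lymphatic-type and 59 venous-like cells.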
